A study of Homo sapiens with 8 samples.

Results

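A group of 10 genes of heme breakdown, iron storage and iron handling were followed in LX-2 cells treated with an inhibitor of O-GlcNAc transferase (OGT). The genes were HMOX1, HMOX2, BLVRB, FTL, FTH1, TFRC, SLC40A1, SLC11A2, IREB2 and NCOA4, taken by symbol from the count table of each library, and all 10 were found among the 16796 genes of the tables and among the 14895 genes tested. LX-2 is an established human hepatic stellate cell line with a myofibroblast-like state (MF-HSC). The cells grew in DMEM with 5% fetal bovine serum and received DMSO, the vehicle (Control), or OSMI-1 at 50 µM (OGTi) for 24 h. Polyadenylated RNA from 4 biological replicates per group was sequenced, and the treated and control cultures of the same replicate number were paired. All values therefore describe a single cell line at a single dose and time, with no genetic loss of OGT among the 8 libraries.

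Heme is opened by heme oxygenase, which exists as an inducible form (HMOX1) and a constitutive form (HMOX2), and which releases iron, carbon monoxide and biliverdin. Biliverdin reductases (BLVRA and BLVRB) reduce biliverdin to bilirubin. Free iron is stored inside shells of ferritin, made of a light chain (FTL) and a heavy chain that oxidizes the iron (FTH1), and NCOA4 carries ferritin to lysosomes for breakdown. Iron enters cells through the transferrin receptor (TFRC), crosses the endosomal membrane through SLC11A2 (DMT1) and leaves through ferroportin (SLC40A1). IREB2 and ACO1 encode the iron regulatory proteins (IRPs), which bind a hairpin called the iron-responsive element (IRE) when iron is scarce. Binding in the 5′ untranslated region (UTR) of ferritin mRNAs blocks their translation, and binding in the 3′ UTR of TFRC mRNA slows its decay. HMOX1, FTL and FTH1 are also known targets of the transcription factor NRF2 (NFE2L2), and BACH1 represses HMOX1. In the liver, stellate cells lie beside the hepatocytes and macrophages that hold most of the iron of the organ.

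The hairpin was searched for because it is the shared control site of several transcripts of this pathway. A match was a C, a stem of 5 base pairs (G-U pairs allowed) and a loop of 6 bases written CAGTGN, on the transcript strand, in a UTR of the canonical transcript of a gene (GENCODE 44, GRCh38). Of 20046 canonical transcripts, 0.0948% held a match in the 5′ UTR and 0.609% in the 3′ UTR. FTL and SLC40A1 held 1 each in the 5′ UTR and TFRC held 4 in the 3′ UTR, and HMOX2, BLVRB, SLC11A2, IREB2 and NCOA4 gave no match. Windows of HMOX1 and FTH1 are not reported here whatever the search gave, which says nothing of whether they hold the element. The windows are printed 5′ to 3′ with the loop in capitals.
FTL, 5′ UTR, chr19:48965335-48965363, plus strand: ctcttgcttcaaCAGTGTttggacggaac
SLC40A1, 5′ UTR, chr2:189580661-189580689, minus strand: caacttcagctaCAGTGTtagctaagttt
TFRC, 3′ UTR, chr3:196050979-196051007, minus strand: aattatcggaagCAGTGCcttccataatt
TFRC, 3′ UTR, chr3:196050575-196050603, minus strand: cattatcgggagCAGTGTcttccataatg
TFRC, 3′ UTR, chr3:196050510-196050538, minus strand: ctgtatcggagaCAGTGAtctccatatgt
TFRC, 3′ UTR, chr3:196050463-196050491, minus strand: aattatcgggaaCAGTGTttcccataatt

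The libraries held 24166756 to 28201215 expected counts, that is, reads per gene as estimated by RSEM. OGT, whose protein the inhibitor acts on, was at 5351 to 5977 normalized counts in Control libraries and 3534 to 4695 in OGTi libraries, so its mRNA was still present. The stellate markers COL1A1, COL1A2, COL3A1, PDGFRB, VIM, SPARC and TAGLN were expressed, while LRAT and DES stayed at or below 5.75 normalized counts in every library. The summed stellate markers were at 220800 to 261000 in Control and 159600 to 180600 in OGTi, with 6 of 9 called lower. Of 3 macrophage and leukocyte markers measured (summed level of 2420 to 4042 in Control and 5517 to 9310 in OGTi), CD68 was at 2412 to 4023 in Control and 5512 to 9305 in OGTi, whereas PTPRC and CSF1R stayed at or below 11.5, and CD163 and MARCO were not analysed here. Of 4 erythroid markers (summed level of 386.1 to 544.9 and 751.3 to 1023), EPOR was at 386.1 to 543.9 in Control and 750.3 to 1016 in OGTi, and HBA1 and HBA2 stayed at or below 7.79. The summed hepatocyte, cholangiocyte and endothelial markers reached at most 74.0, 141.3 and 91.1 normalized counts in any library. Whether the stellate markers, CD68 or EPOR have a part in the results given here was not tested.

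Under OGTi, 5 of the 10 genes rose and 1 fell. HMOX1 rose 4.13-fold, FTL 2.27-fold, FTH1 1.45-fold, BLVRB 1.42-fold and TFRC by 29.6%, and SLC11A2 fell to 0.68-fold of Control (DESeq2 Wald test, Benjamini-Hochberg q of 0.05 or lower). HMOX2, SLC40A1, IREB2 and NCOA4 were not called. Of the 14028 genes with a q, 46.6% were called, 22.7% higher and 24.0% lower, so that 6 of 10 called in either direction, 5 of 10 higher and 1 of 10 lower stand beside these shares. The OGTi libraries lay entirely above or below the Control libraries for the same 6 genes, against 38.0% of the 14895 genes tested. The median log2 fold change was 0.22 over the 10 genes and 0.00 over all genes tested. By absolute log2 fold change, HMOX1 exceeded 96.4% and FTL 88.7% of all genes tested. SLC11A2 exceeded 69%, FTH1 67.3%, BLVRB 65.7% and TFRC 54.8% of them. The median absolute log2 fold change of all called genes was 0.52. In bulk libraries of this kind, fewer cells that express a gene and less RNA per cell cannot be told apart.

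**Figure D1:**
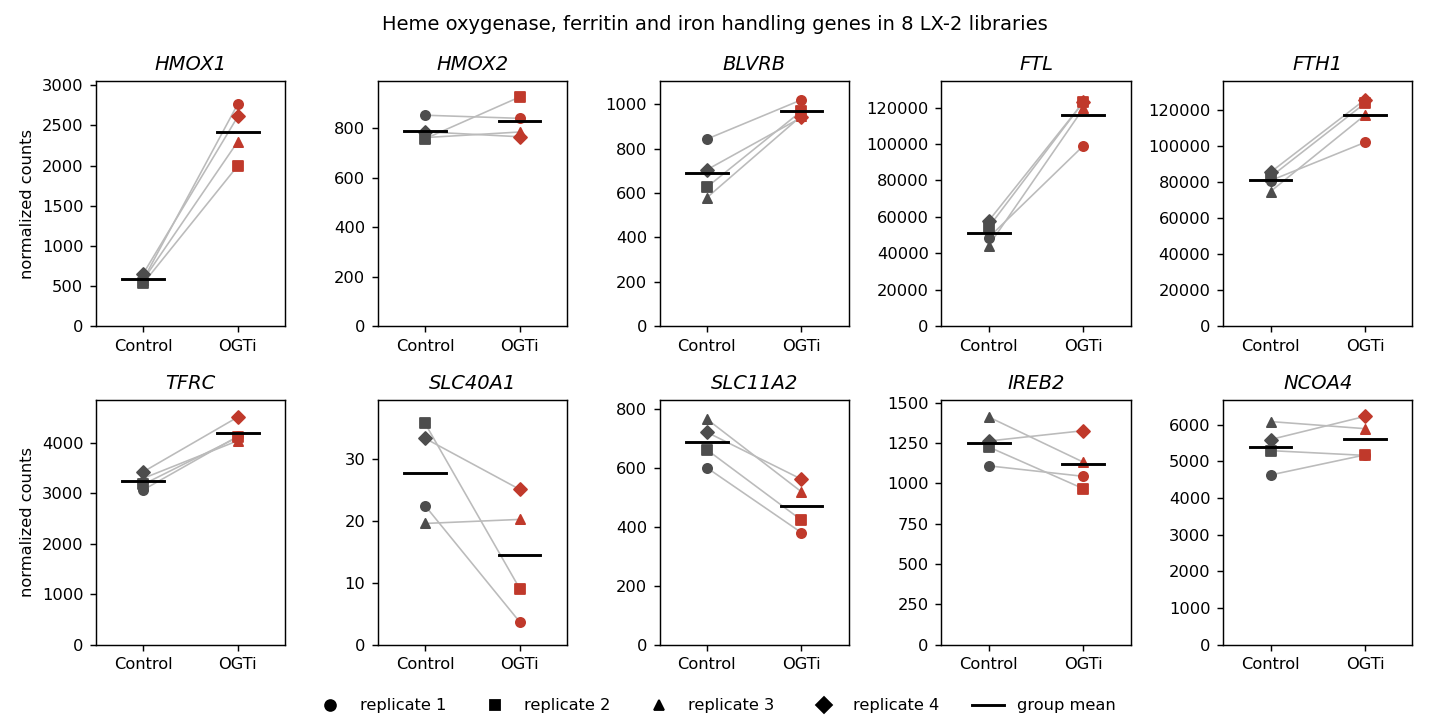
Normalized counts (y axis, linear from 0, a scale of its own for each gene) of the 10 genes in the 4 Control and 4 OGTi libraries, with lines joining replicates of the same number and bars at the group means. HMOX1 went from 530.8 to 652.1 in Control to 1998 to 2768 in OGTi, while the libraries of HMOX2, SLC40A1, IREB2 and NCOA4 overlapped.

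HMOX1 (chromosome 22, 35380361 to 35394214, plus strand) had the largest change of the 10 genes. Its normalized counts were 577.7, 530.8, 573.4 and 652.1 in Control replicates 1 to 4 and 2768, 1998, 2299 and 2611 in OGTi replicates 1 to 4. Every OGTi library thus held more than the highest Control library, and within pairs the ratio ranged from 3.76-fold in replicate 2 to 4.79-fold in replicate 1. The group means were 583.5 ± 50.4 and 2419 ± 342 (SD over 4 libraries), which the model put at 2.05 ± 0.09 on the log2 scale (SE, DESeq2 q of 8.90e-106). This log2 fold change was above that of 98.3% of all genes tested, and the Wald statistic of 22.15 ranked 6 among them in the upward direction.

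HMOX2 (chromosome 16, 4474690 to 4510347, plus strand), the constitutive heme oxygenase, lay at 852.4, 757.2, 761.9 and 785.3 normalized counts in the Control libraries and at 839.8, 926.1, 784.5 and 765.3 in the OGTi libraries. It was higher in 2 of 4 pairs, with the largest difference in replicate 2 (log2 ratio of 0.29). The log2 fold change was 0.07 ± 0.10 (DESeq2 q of 0.622), with a 95% interval of -0.14 to 0.27, so that a rise above 1.21-fold or a fall below 0.911-fold lay outside the interval. The count of HMOX1 divided by that of HMOX2 was 0.678 to 0.830 in Control and 2.16 to 3.41 in OGTi libraries. HMOX1 mRNA counts were thus below those of HMOX2 in every Control library and above them in every OGTi library, with the lowest OGTi ratio in replicate 2, where HMOX1 was lowest and HMOX2 highest. The Control order depends on the length used, since per kilobase of exon HMOX1 was above HMOX2 in Control replicates 2, 3 and 4. With the longest transcript of each gene as the length, the Control mean was 43.1 for HMOX1 and 51.9 for HMOX2.

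BLVRB (chromosome 19, 40447765 to 40465764, minus strand), the biliverdin IXβ reductase, lay at 843.7, 626.6, 579.2 and 705.2 normalized counts without the inhibitor (Control) and at 1021, 970.3, 948.9 and 941.6 with it. The Control libraries spread more (coefficient of variation of 16.8%) than the OGTi libraries (3.68%), and replicate 1, the highest Control, showed the smallest increase (1.21-fold against 1.34-fold to 1.64-fold in the other pairs). On the log2 scale BLVRB rose by 0.51 ± 0.11 (DESeq2 q of 1.50e-05). BLVRA, the main biliverdin reductase of adult tissue, fell from 387.6 ± 41.4 to 183.2 ± 23 normalized counts (log2 fold change of -1.08 ± 0.15, DESeq2 q of 1.22e-12) and was lower in all 4 pairs. The ratio of BLVRB to BLVRA counts, chosen after the values were seen, went from 1.29 to 2.38 in Control to 4.41 to 6.21 in OGTi.

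FTL (chromosome 19, 48965309 to 48966879, plus strand), the ferritin light chain whose 5′ UTR hairpin is printed above, was at 48570, 54350, 44180 and 57760 normalized counts in Control replicates 1 to 4. In OGTi replicates 1 to 4 it had 98970, 123000, 119500 and 122900. OGTi replicate 1 lay below the other OGTi libraries but above all Control libraries. FTL rose by 1.18 ± 0.08 on the log2 scale (DESeq2 q of 3.03e-53), and the ratio within pairs was 2.04-fold to 2.71-fold, with the largest in replicate 3.

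FTH1 (chromosome 11, 61959718 to 61967634, minus strand), the ferroxidase chain of ferritin, was counted at 80830, 82870, 74760 and 85480 in the Control libraries after normalization and at 102100, 123900, 117300 and 125900 in OGTi. As for FTL, OGTi replicate 1 was the lowest of its group, although HMOX1 was highest in that library. On the log2 scale FTH1 rose by 0.53 ± 0.07 (DESeq2 q of 1.99e-13), with pairs at 1.26-fold to 1.57-fold. The 95% intervals of the 2 ferritin chains did not overlap, at 1.03 to 1.33 for FTL and 0.40 to 0.67 for FTH1 on the log2 scale, but the difference between them was not tested.

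Ferritin mRNAs were among the most abundant of the libraries. FTL and FTH1 together took 0.428% to 0.520% of all counts in Control and 0.796% to 0.992% in OGTi libraries. By count, FTL ranked 23 to 38 among all genes in Control and 6 to 10 in OGTi, and FTH1 moved from ranks 11 to 19 to ranks 5 to 9. The ratio of FTL to FTH1 counts was 0.601, 0.656, 0.591 and 0.676 in Control replicates 1 to 4 and 0.970, 0.992, 1.02 and 0.977 in OGTi replicates. The ratio was thus higher in all 4 OGTi libraries than in any Control library, and its spread was smaller in OGTi (SD of 0.0221) than in Control (SD of 0.0413). FTH1 has processed copies in the genome, of which FTH1P18 was in the tables with 1.90 ± 2.66 normalized counts without and 0.709 ± 0.917 with OGTi (DESeq2 gave no q). All expected counts of FTL and FTH1 were whole numbers. Reads of copies without a row of their own could have been given to the parent genes, which was not tested.

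**Figure D2:**
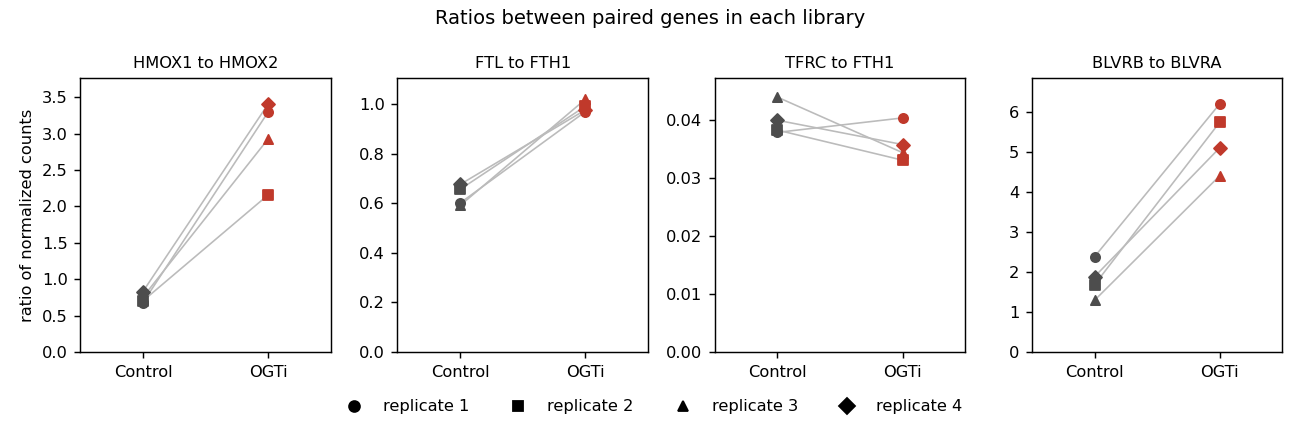
Ratio of normalized counts (y axis, linear from 0) for HMOX1 to HMOX2, FTL to FTH1, TFRC to FTH1 and BLVRB to BLVRA in each Control and OGTi library, with lines joining replicates of the same number. The first, second and last ratios were higher in all OGTi libraries, whereas TFRC to FTH1 overlapped between the groups.

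TFRC (chromosome 3, 196012511 to 196082153, minus strand), the receptor that takes up transferrin-bound iron and whose 3′ UTR holds the 4 hairpins printed above, rose together with ferritin mRNAs. Its normalized counts were 3062, 3171, 3291 and 3420 in Control and 4124, 4105, 4037 and 4505 in OGTi. The groups did not overlap, and the spread was small in both (coefficient of variation of 4.76% in Control and 5.04% in OGTi). TFRC rose by 0.37 ± 0.07 on the log2 scale (DESeq2 q of 5.75e-07), with all pairs between 1.23-fold and 1.35-fold. Relative to FTH1, TFRC did not separate the groups, at 0.0379 to 0.0440 counts per FTH1 count in Control and 0.0331 to 0.0404 in OGTi.

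SLC11A2 (chromosome 12, 50979401 to 51028566, minus strand), the divalent metal transporter of the endosome, was the only gene of the 10 called lower. Control libraries held 601.1, 662.3, 766.5 and 721.8 normalized counts of it, and OGTi libraries 380.2, 422.9, 519.1 and 562.0. Replicate 1 was the lowest of both groups, and the ratio within pairs ran from 0.633-fold in replicate 1 to 0.779-fold in replicate 4. The log2 fold change was -0.56 ± 0.11 (DESeq2 q of 5.95e-06). The canonical SLC11A2 transcript held no match to the hairpin. The search asked for 5 unbroken base pairs, so it would miss an element with an unpaired base in this stem. Other isoforms, which the counts do not separate, were not searched.

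SLC40A1 (chromosome 2, 189560590 to 189583758, minus strand), the iron exporter ferroportin, was scarcely expressed. Control replicates 1 to 4 held 22.4, 35.7, 19.5 and 33.3 normalized counts of it, and OGTi replicates 1 to 4 held 3.66, 9.04, 20.2 and 25.04. Replicates 1 and 2 were low in OGTi, replicate 4 was slightly below its Control, and replicate 3 was not lower than its Control. The log2 fold change was -1.15 ± 0.56 (unadjusted p of 0.0406, DESeq2 q of 0.0808), with a 95% interval of -2.24 to -0.05. Without replicate 3 the log2 fold change was -1.58 ± 0.67 with a DESeq2 q of 0.049, so the call depended on that pair.

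IREB2 (chromosome 15, 78437431 to 78501453, plus strand), the iron regulatory protein that is degraded when iron is ample, was at 1108, 1225, 1411 and 1262 normalized counts in the Control libraries, against 1043, 966.3, 1131 and 1326 in OGTi. It was lower in replicates 1, 2 and 3 and higher in replicate 4. The log2 fold change was -0.17 ± 0.10 (DESeq2 q of 0.160), with a 95% interval of -0.36 to 0.03. The interval therefore held no rise above 1.02-fold and no fall below 0.777-fold.

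NCOA4 (chromosome 10, 46005088 to 46030623, minus strand), the receptor for ferritin breakdown, was at 4630, 5295, 6089 and 5598 normalized counts in the Control libraries, against 5179, 5165, 5895 and 6232 in OGTi. Replicates 1 and 4 were higher and replicates 2 and 3 slightly lower than their Control. The log2 fold change was 0.06 ± 0.07 (DESeq2 q of 0.539), with a 95% interval of 0.944-fold to 1.15-fold.

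**Figure D3:**
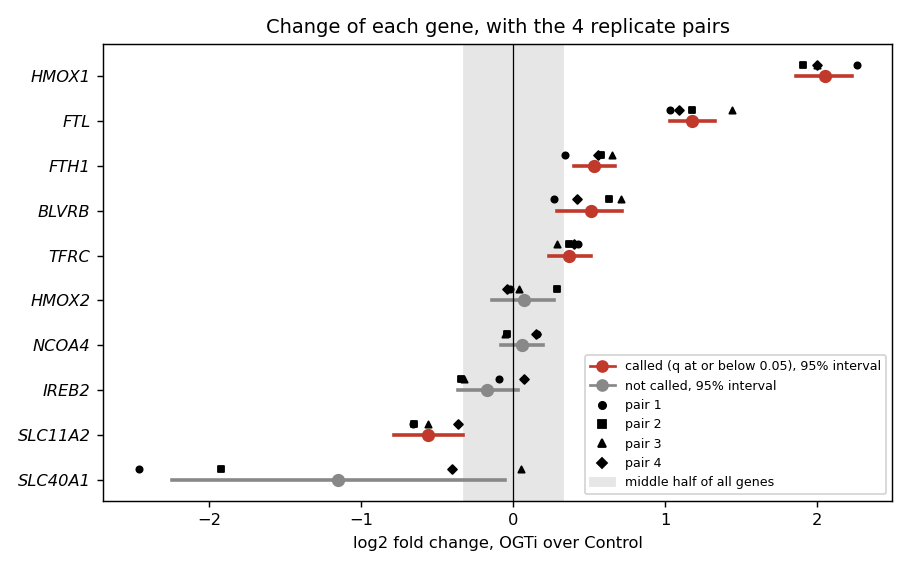
Log2 fold change of OGTi over Control (x axis) for each of the 10 genes (y axis), with the 95% interval of the DESeq2 estimate as a bar and the 4 replicate pairs as small symbols above it. HMOX1 (2.05) and FTL (1.18) lie farthest above the grey band, which spans the quartiles of all genes tested (-0.32 to 0.33). The estimates of BLVRB, FTH1 and TFRC also lie above it, but the intervals of BLVRB (0.29 to 0.72) and TFRC (0.24 to 0.51) reach into it. The estimates of SLC11A2 and SLC40A1 lie below it, and the interval of SLC40A1, the widest (-2.24 to -0.05), reaches into it.

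Between genes, levels were compared as counts per kilobase of exon, scaled so that all genes of a library sum to the same total (as for TPM). In Control, FTL (10600 ± 1200) and FTH1 (7300 ± 376) were far above NCOA4 (245 ± 28.5, SD, n = 4 each). BLVRB (77.1 ± 12.4) came next, followed by HMOX1 (45.7 ± 3.38) and HMOX2 (42.2 ± 2.10), whose libraries overlapped. TFRC (33.7 ± 1.47), IREB2 (20.9 ± 2.19), SLC11A2 (12.6 ± 1.33) and SLC40A1 (1.19 ± 0.343) were lower in this order, and no other neighbours overlapped. In OGTi, HMOX1 reached 195 ± 30.5 and stood above BLVRB (112 ± 4.02) but below NCOA4 (262 ± 30.0), while HMOX2 (45.5 ± 3) and TFRC (44.8 ± 3.13) overlapped. The order and the values rest on the length used, which also enters the common total. With the longest transcript of each gene, FTH1 (8450) stood above FTL (7380) in Control, and TFRC (59.1) stood above HMOX2 (51.9) and HMOX1 (43.1).

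**Figure D4:**
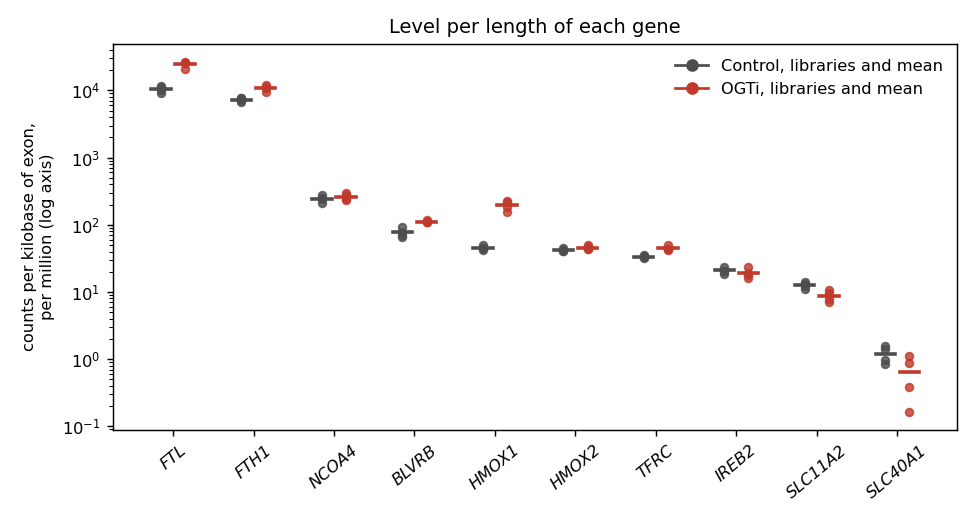
Level of each of the 10 genes as length-scaled counts (y axis, log scale, counts per kilobase of exon scaled as for TPM) in the 4 Control and 4 OGTi libraries, with bars at the means. The genes span from 10600 (FTL) to 1.19 (SLC40A1) in Control, and HMOX1 goes from 45.7 to 195.

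Promoter windows of 250 bases before to 50 bases after the start (RefSeq, GRCh38.p14) were found for HMOX2, BLVRB, FTL, TFRC, SLC40A1, SLC11A2, IREB2 and NCOA4 (8 of the 10 genes), but not for HMOX1 and FTH1. The core of the antioxidant response element bound by NRF2, searched as TGACNNNGC on both strands, was in 13.3% of all 35116 promoter windows and in 1 window of NCOA4, 24 bases after a downstream alternative start. It was in no window of the other 7 genes, which says only that these letters are absent there. The hypoxia response core ACGTG was in 21.4% of all windows and in those of TFRC (88 bases before the start), FTL and HMOX2. The loop of the iron-responsive element, CAGTGN after the start on the sense strand, was in 6.36% of all windows, in FTL at the hairpin printed above, and in NCOA4, where it overlaps the antioxidant core and no hairpin was matched.

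The lists of pathway genes around these 10 were chosen with earlier results of these data known. They held 114 further genes, of which 105 were tested, 45 were called higher and 16 lower, with a median log2 fold change of 0.15. Over all 14028 genes with a q, 22.7% were called higher and 24.0% lower, and the counts of each list stand beside these shares. Of 8 heme synthesis genes tested, 3 were higher and 1 lower (median of 0.20). ALAS1, the rate-limiting enzyme of heme synthesis outside the erythroid lineage, rose from 2839 ± 82.3 to 4041 ± 521 normalized counts (log2 fold change of 0.50 ± 0.08, DESeq2 q of 1.36e-09). UROS, which closes the tetrapyrrole ring, rose from 1097 ± 69.0 to 1897 ± 189 (0.79 ± 0.09, DESeq2 q of 7.44e-17).

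Of 10 genes of heme transport and biliverdin reduction tested, 4 were higher and 1, BLVRA, was lower (median of -0.07). SLC48A1, which exports heme from endosomes and lysosomes, rose from 2810 ± 175 to 4263 ± 251 normalized counts (log2 fold change of 0.60 ± 0.07, DESeq2 q of 2.65e-15). ABCB6, a porphyrin transporter, rose from 196.4 ± 69.5 to 387.6 ± 73.2 (1.02 ± 0.16, DESeq2 q of 2.18e-09). FLVCR1, a transporter long described as a heme exporter, was estimated at -0.32 ± 0.18 on the log2 scale (DESeq2 q of 0.143) and was not called.

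Of 15 genes of iron uptake and delivery tested, 6 were higher and 2 lower (median of 0.25). MCOLN1, a lysosomal channel that releases cations including iron, rose from 795.5 ± 67.6 to 1633 ± 143 (log2 fold change of 1.04 ± 0.09, DESeq2 q of 2.87e-30). SLC22A17, a receptor for lipocalin 2, rose by a log2 fold change of 0.65 ± 0.10. PCBP2, which encodes a cytosolic iron chaperone that also binds RNA, fell from 20630 ± 515 to 15260 ± 1370 (-0.44 ± 0.07, DESeq2 q of 4.82e-10).

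Of 6 genes of iron export and the hepcidin axis tested, 2 were higher and 0 lower (median of 0.18), and 4 were not called, some of them without a q. BMP6, the ligand that induces hepcidin in hepatocytes, was almost absent in Control (1.95, 1.88, 1.15 and 0 normalized counts) and reached 27.4, 46.2, 18.3 and 12.02 in OGTi (DESeq2 q of 5.70e-06). NEO1, a coreceptor in the same axis, was called higher (0.21 ± 0.08, DESeq2 q of 0.021), but not without replicate 2, 3 or 4 (q of 0.125, 0.201 and 0.0946). Hepcidin itself (HAMP) was not analysed here.

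Of 7 genes of IRP control, 1 was higher and 2 were lower (median of -0.06). ACO1, the other iron regulatory protein, was at 3037 ± 410 normalized counts in Control libraries against 2896 ± 262 in OGTi (log2 fold change of -0.06 ± 0.07, DESeq2 q of 0.499). FBXL5, the iron-sensing subunit of the ubiquitin ligase for both regulatory proteins, fell from 1709 ± 92.4 to 1359 ± 99.4 (-0.33 ± 0.09, DESeq2 q of 0.000388). RBX1, a RING subunit shared by many ligases of this class, fell by 0.79 on the log2 scale (SE of 0.14, DESeq2 q of 1.50e-07). HERC2, which targets FBXL5, was called higher (0.24 ± 0.08, DESeq2 q of 0.00644), but not without replicate 1 (0.16, q of 0.0738).

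Of 24 genes of iron-sulfur cluster assembly, 8 were higher and 5 lower (median of 0.04). FDXR, which feeds electrons to the assembly machinery, rose from 318.4 ± 47.5 to 746.2 ± 78.9 (log2 fold change of 1.23 ± 0.13, DESeq2 q of 3.53e-20). LYRM4, a partner of the sulfur donor, and NUBP1, a cytosolic scaffold, fell by 0.64 and 0.74 on the log2 scale. The list thus changed in both directions around a median near that of all genes tested.

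Among 9 transcripts known for an iron-responsive element, 5 were higher and 1 lower (median of 0.32). FTL, FTH1, EPAS1, TFRC and CDC14A were higher, SLC11A2 was lower, and SLC40A1 and CDC42BPA were among those not called. EPAS1, the hypoxia factor HIF-2α with a 5′ UTR element, rose from 8249 ± 464 to 10290 ± 462 (0.32 ± 0.07, DESeq2 q of 1.02e-05). CDC14A rose from 172.2 ± 25.6 to 273.4 ± 33.7 (0.67 ± 0.16, DESeq2 q of 0.000175). The genes called higher thus included some known for a 5′ element (FTL, FTH1 and EPAS1) and some known for a 3′ element (TFRC and CDC14A), and the gene called lower is known for a 3′ element in some isoforms. Of the 9 transcripts, FTL, FTH1, TFRC, SLC11A2 and SLC40A1 belong to the 10 genes.

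Of 13 regulators of HMOX1 and ferritin transcription, 7 were higher and 2 lower (median of 0.27). NFE2L2, which encodes NRF2, was at 1512 ± 152 normalized counts in Control libraries against 1506 ± 45.1 in OGTi (log2 fold change of 0.00 ± 0.09, DESeq2 q of 0.995). KEAP1, the inhibitor of NRF2, was higher (0.27 ± 0.08, DESeq2 q of 0.0014), and BACH1 was not called (-0.14 ± 0.09, DESeq2 q of 0.212). MAFF, a small MAF protein that pairs with NRF2 or BACH1 on DNA, rose from 740.4 ± 86.8 to 1994 ± 140 (1.43 ± 0.11, DESeq2 q of 1.15e-39). NFE2L1 rose by a log2 fold change of 0.67 ± 0.07 and ATF4, a stress factor, by 0.72 ± 0.08. The 2 called lower, both named after their values were seen, were TFEB and HSF1. TFEB fell from 165.8 ± 29.7 to 67.38 ± 7.16 (-1.29 ± 0.23, DESeq2 q of 9.84e-08), and HSF1 changed by -0.18 ± 0.08 (DESeq2 q of 0.0448).

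Of 10 NRF2 targets outside iron handling, 7 were higher and 1 lower (median of 0.65). GCLM, a subunit of the first enzyme of glutathione synthesis, rose from 1129 ± 186 to 2192 ± 452 normalized counts (log2 fold change of 0.95 ± 0.09, DESeq2 q of 1.07e-23). SRXN1, which repairs peroxiredoxins, rose by 0.61 ± 0.07, and OSGIN1 by 1.10 ± 0.15. Among the more abundant targets, both named after their values were seen, TXNRD1, a thioredoxin reductase, fell from 24260 ± 4200 to 18600 ± 4900 (-0.41 ± 0.08, DESeq2 q of 2.69e-06), and NQO1, a quinone reductase, was not called (0.24 ± 0.11, DESeq2 q of 0.0567). These values are given beside those of HMOX1, FTL and FTH1, which belong to the same group of targets, and a common cause was not tested.

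**Figure D5:**
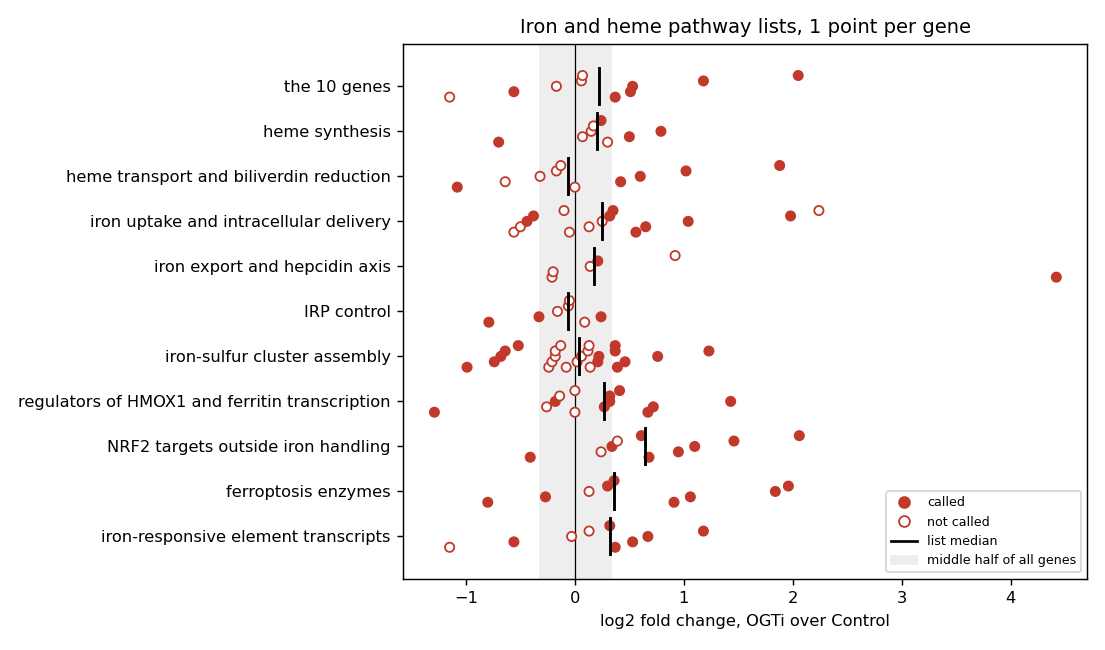
Log2 fold change of OGTi over Control (x axis) for every tested gene of each list (y axis), with filled points for called genes, open points for genes not called, black lines at list medians and a grey band at the quartiles of all genes tested (-0.32 to 0.33). The medians run from -0.07 for heme transport and biliverdin reduction to 0.65 for NRF2 targets outside iron handling, and BMP6 (4.42) is the farthest point.

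The genes whose log2 normalized counts followed HMOX1 most closely over the 8 libraries, among 10934 genes with a mean of at least 100, were HEATR5A (Pearson r of 0.9986), PIK3R3 (0.9974), KLHL21 (0.9961), MICB (0.9950) and STRIP2 (0.9946). Those closest to TFRC were RANBP10 (0.9948), NETO2 (0.9929), TMEM192 (0.9922), CNIH1 (0.9917) and ADAM22 (0.9915). All 10 were called higher in OGTi. The libraries fall into treated and untreated ones, so these values mainly describe genes that separate the groups alike, and they rest on 8 points that share size factors and pairs.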

How the data were processed

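RNA-seq libraries of LX-2 cells (4 Control, 4 OGTi, labelled as biological replicates) were grouped by their titles. Per the study's methods, the authors aligned paired-end reads to hg38 with Bowtie2 2.3.5.1 and counted them per gene with RSEM 1.3.1 on a stranded setting. The deposited values are expected counts (estimated counts per symbol, not scaled for depth), of which 12.9% to 16.3% per library were fractional. A deposited comparison table of the authors (DESeq2 1.36.0 fold changes and p-values) was not used.

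Expected counts were rounded, genes with a total under 10 were left out, and 14895 genes were fitted in R 4.3.3 with DESeq2 1.42.0 (Wald test, median-of-ratios size factors, replicate number as a block, unshrunken fold changes, q of 0.05 or lower). The count filter, the pairing and the q threshold follow the study's methods. Normalized counts are counts divided by size factors. Library depth of 24166756 to 28201215 counts sets the precision of low genes such as SLC40A1. Pairing comes from the methods, and deviations from group means over 11702 genes correlated at 0.379, 0.303, 0.138 and 0.269 between libraries of the same number. Control replicate 3 and OGTi replicate 4 correlated at 0.272, and Control replicate 4 and OGTi replicate 3 at 0.201. These values do not tell the labelled pairs 3 and 4 from swapped ones, so ratios within these pairs rest on the labels. Exon lengths (GENCODE 44, GRCh38) were found for 15800 of 16796 genes.

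The 10 genes and the lists were chosen with earlier results of these data known. Named beside them were 8 genes fixed by name, the 3 called genes of each list with the largest absolute Wald statistic, the 5 genes most alike to HMOX1 and to TFRC, and ferritin pseudogenes. Other genes were named after their values were seen. Some genes that the rule names are not reported here. Alternatives were edgeR 4.0.16, other size factors, other filters, no block, and leaving out each pair.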

Additional observations from a re-analysis of the deposited data

Results flagged for a closer look

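In each group of 4 libraries, the gap between the highest or lowest library and its neighbour was set against the range of the group. Of 124 groups examined, 11 passed the 95% critical value of the Dixon test, where chance gives about 1 in 20, or 6.2. Among the ferritin values, FTL had 98970 normalized counts in OGTi replicate 1, below the range of the rest of its group (119500 to 123000). FTH1 took 0.269% of counts in Control replicate 3, below the 0.306% to 0.313% of the remaining controls. In Control replicate 1, FBXL5 (1847 against 1651 to 1672), NFE2L2 (1737 against 1412 to 1462) and RBX1 (567.0 against 459.7 to 476.9) stood above the rest of their group. ABCB6 had 497.1 normalized counts in OGTi replicate 1 against 345.1 to 355.6. In Control replicate 4, KEAP1 (1684 against 1774 to 1784) was lower and STRIP2 (1405 against 1128 to 1166) higher than in the rest of the group. In OGTi replicate 4, RANBP10 (2377 against 2049 to 2087) and CNIH1 (2689 against 2456 to 2473) were higher, and KLHL21 was lower in OGTi replicate 2 (2585 against 2973 to 3032).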

How the results depend on the processing

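Of 111 log2 fold changes of the 10 genes recomputed under the alternatives, 110 kept their side of the threshold. The exception was SLC40A1, whose log2 fold change ran from -1.58 to -0.75 when 1 pair at a time was left out. It was called only without replicate 3 (q of 0.049), so the number of the 10 genes called lower ran from 1 to 2. The 65 other counts of calls stayed within 1.5 times the reported count. Dropping the replicate block, in DESeq2 or edgeR, changed no call among the 10 genes (SLC40A1 at -0.94 without the block in both). Of 481 values of other named genes, 476 kept their call. NEO1 lost it with edgeR and no replicate block (q of 0.0507), and NEO1 and HERC2 lost it without some pairs. With the longest transcript in place of summed exons, Control levels per length moved to 7380 for FTL, 8450 for FTH1, 195 for NCOA4, 62.1 for BLVRB, 51.9 for HMOX2, 59.1 for TFRC, 24.9 for IREB2 and 20.9 for SLC11A2. No scaling moved the median of all genes by more than 0.01 on the log2 scale. Depth limits SLC40A1 and BMP6, whose counts were below 50 in every library, and gene counts cannot separate isoforms or measure ferritin protein, heme oxygenase activity or iron.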

Other observations

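Of 9 tested genes known from ferroptosis, a form of cell death by iron-dependent lipid peroxidation, 6 were higher and 2 lower in OGTi (median log2 fold change of 0.36). SLC3A2, the chaperone subunit of the cystine importer, went from 3733 ± 207 to 13400 ± 857 normalized counts (1.84 ± 0.07, DESeq2 q of 3.76e-167). SLC7A11, its partner in that importer and listed here with the NRF2 targets, was not called (0.39 ± 0.21, DESeq2 q of 0.117). SAT1, a polyamine acetyltransferase, went from 508.8 ± 75.8 to 2010 ± 558 (1.96 ± 0.12, DESeq2 q of 7.80e-62), and GCH1, the first enzyme of tetrahydrobiopterin synthesis, from 462.2 ± 60.8 to 866.2 ± 26.1 (0.91 ± 0.12, DESeq2 q of 1.09e-13). The 2 called lower were ACSL4 (-0.27 ± 0.07, DESeq2 q of 0.000887) and DHODH (-0.80 ± 0.15, DESeq2 q of 1.22e-06). No measure of cell death is among these data.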
